A study of Homo sapiens with 18 samples.

Results

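The genes described here are the nuclear-encoded subunits of the respiratory chain and of ATP synthase, measured in HEK293 cells, an established human embryonic kidney line. They were chosen by symbol among protein-coding genes: the NDUF subunits without the NDUFAF assembly factors, SDHA to SDHD, the UQCR genes with CYC1, the COX4 to COX8 subunits, and the ATP5 genes under old or current names. The rule found 90 genes of 63568 gene entries, with 37 in complex I, 4 in complex II, 10 in complex III, 19 in complex IV and 20 in complex V. NDUFA4 and its paralogue NDUFA4L2 were placed in complex IV, since NDUFA4 is known as a subunit of cytochrome c oxidase. A pair of hyphenated readthrough genes was left out.

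Cells were given 500 µM 4-thiouridine, a thiol-bearing uridine that cells incorporate into newly made RNA, for 7.5, 15, 30, 45 or 60 min, and the labelled RNA was pulled down with streptavidin after biotinylation. Each labelling time had 3 libraries. Total RNA, not selected on streptavidin, had 3 libraries that differed in method: poly(A) selection, depletion of ribosomal RNA with RNase H, and depletion with Ribo-Zero. The series aims to class coding and non-coding genes by how their RNA is made, processed and lost. Whether the libraries of a time are separate cultures is not stated, and p-values reflect no more than the spread among these libraries, which may be technical. For the total libraries that spread also holds the method.

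The respiratory chain moves electrons from NADH and succinate to oxygen through complexes I to IV of the inner mitochondrial membrane, and complex V uses the resulting proton gradient to make ATP. Complexes I, III, IV and V join subunits encoded in mitochondrial DNA, which carry much of the catalysis and proton pumping, with nuclear-encoded subunits that are translated in the cytosol and imported. Complex II is wholly nuclear-encoded. Many of the nuclear-encoded subunits are small accessory proteins, and mRNAs of this group are known for long half-lives in many cell types.

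Values are the authors' TPM, shares per 1000000 transcripts that correct for transcript length but carry no read depth, so depth is unknown. Mature TPM count spliced isoforms and primary TPM an isoform that spans the locus. Genes with mature TPM above 0 numbered 18318 to 20407 in 14 labelled libraries, and 15159 in the labelled 45 min library of replicate 2, which stands apart. That library listed 76 subunit genes above 0, against 81 to 83 in the other labelled libraries, so 45 min values are also given without it. Of 7 genes expected in HEK293, 5 had an entry, and at 60 min WT1 averaged 9.29 TPM and PAX2 4.64 TPM (n = 3), while PAX8 and NEFM reached at most 0.11 and 2.40 TPM in any library. Of 14 markers of other cell types, HBA1 reached 18.8 TPM, ACTA2 25.7 TPM and COL1A1 5.78 TPM in the highest library, and the other 11 reached at most 0.32 TPM. The tissue isoforms of complex IV followed that pattern: COX4I2, known from lung, COX7A1, from heart and muscle, and COX7B2 and COX8C, from testis, were listed at 0 in all 18 libraries.

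Mature mRNAs of the subunits made up a smaller share of labelled RNA after 60 min than after 7.5 min. Of 83 subunit genes whose mean over the labelled libraries was 1 TPM or more, 48 fell and 1 rose (limma on log2(TPM + 1), Benjamini-Hochberg adjusted p under 0.05), and 34 did not pass. Among all 16739 genes tested, 4.21% fell and 15.8% rose. The median log2 change of the subunit genes was −1.13, against 0.24 for all genes. In 62 of the 83 genes each 60 min library lay below each 7.5 min library, an arrangement found in 11.0% of all genes. Under median-ratio scaling the median of all genes moved to −0.05 and the calls over all genes to 1307 lower and 1297 higher, against 705 and 2653 without it, and the subunit genes gave 55 lower and 0 higher. TPM are shares, so these data do not separate less labelled RNA per cell from a smaller share of labelled RNA. The libraries are bulk RNA of a single cell line, so a change in all cells cannot be told from a change in some.

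The other 7 subunit genes were below the filter on low values. Besides the 4 listed at 0, COX6A2, a muscle isoform, was above 0 in 1 library at 0.7 TPM. COX6B2, a testis isoform, averaged 0.393 ± 0.125 TPM at 60 min and 0.237 ± 0.208 TPM at 7.5 min (n = 3 each, SD). ATP5MGL, a paralogue of the ATP synthase subunit g gene, was above 0 in 1 labelled library, at 0.54 TPM.

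The summed mature TPM of all 90 genes was 9295, 7862 and 10838 in the 7.5 min libraries. At 7.5, 15, 30, 45 and 60 min it averaged 9332 ± 1488, 5726 ± 290, 3941 ± 74.9, 3813 ± 329 and 4228 ± 298 TPM (n = 3 each, SD). In total RNA the sum was 15452 TPM with poly(A) selection, 8278 TPM after RNase H and 8980 TPM after Ribo-Zero. The 7.5 min sums thus lay within the range of the depleted and poly(A) total libraries, except replicate 2, and all sums from 15 to 60 min lay below every total library. The 7.5 min group had the highest mean of the 5 labelling times in 73 of 83 genes. The lowest mean fell at 15 min in 10 genes, at 30 min in 20, at 45 min in 37 and at 60 min in 16. These counts of highest and lowest means were made for the subunit genes only, so no share over all genes stands beside them.

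**Figure D1:**
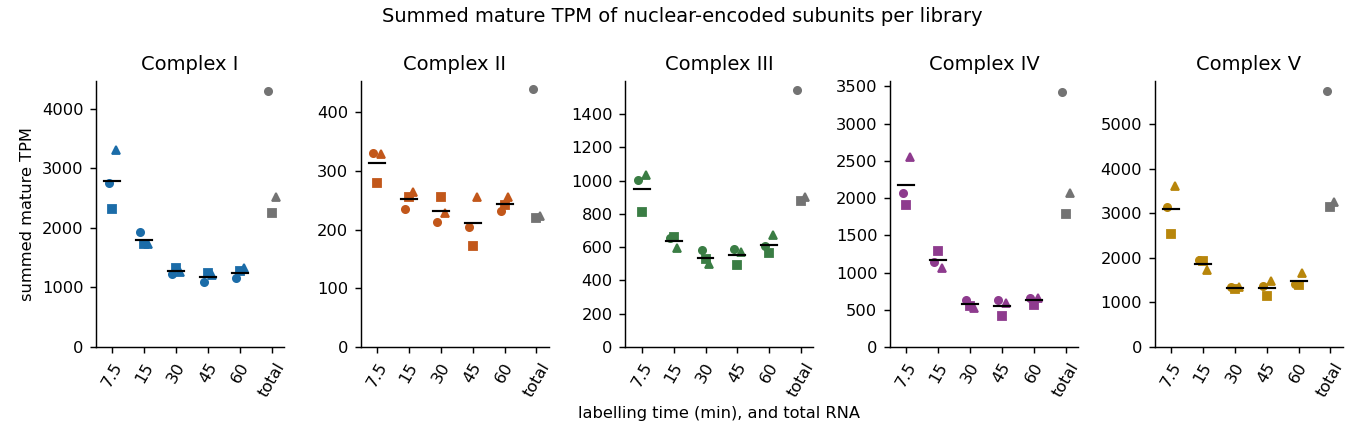
Summed mature TPM of the nuclear-encoded subunits of each complex in every library (circle, square and triangle for replicates 1, 2 and 3; in total RNA poly(A), RNase H and Ribo-Zero), by labelling time in min, with bars at the mean of 3 labelled libraries. Complex IV averaged 627 TPM at 60 min and 2177 TPM at 7.5 min, while complex II averaged 243 TPM at 60 min and 313 TPM at 7.5 min.

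The subunit medians at the times between were also below 0. At 15 min none of the 83 genes passed the limma test against 7.5 min, where 0.00597% of all genes fell and 0.0418% rose. The median log2 change of the 83 was −0.73. An unadjusted p under 0.05 (limma) was found in 38 of the 83, against 1482 of all 16739 genes. A fit with the title letter as a block called 10 of the 83 lower and none higher, against 123 lower and 108 higher of all 16739. At 30 min 42 genes fell and none rose, against 2.84% lower and 5.7% higher of all genes, with a median log2 change of −1.26. At 45 min 50 fell and none rose, against 4.77% lower and 12.3% higher of all genes, with a median of −1.28. Without the library that stands apart 53 fell, against 660 lower and 1664 higher of 16626 genes. With only the 6 libraries of 45 and 7.5 min in the fit, 29 fell, against 316 lower and 795 higher of all 16739. In the main fit 798 of the 16739 were lower. These comparisons share the 7.5 min libraries.

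Promoters are shown for the subunit gene with the largest fall in each complex among those with an entry in the RefSeq promoter table, as the stretch from 250 bases before to 50 bases after the start (GRCh38.p14). They are NDUFB1 (chr14:92121657-92121956, minus strand), SDHA (chr5:218070-218369, plus strand), UQCRH (chr1:46303448-46303747, plus strand), COX6B1 (chr19:35648073-35648372, plus strand) and ATP5ME (chr4:674227-674526, minus strand). Capitals mark matches on either strand to GCATGCGC (letters searched for NRF1) and CCGGAAG (letters searched for ETS factors such as GABPA). On the other strand these read GCGCATGC and CTTCCGG.
NDUFB1: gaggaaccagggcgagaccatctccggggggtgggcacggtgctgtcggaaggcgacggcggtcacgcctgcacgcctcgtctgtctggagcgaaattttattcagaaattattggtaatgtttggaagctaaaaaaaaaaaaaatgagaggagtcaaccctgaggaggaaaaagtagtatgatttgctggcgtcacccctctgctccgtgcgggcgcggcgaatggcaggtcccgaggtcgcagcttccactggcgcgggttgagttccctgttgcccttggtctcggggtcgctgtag
SDHA: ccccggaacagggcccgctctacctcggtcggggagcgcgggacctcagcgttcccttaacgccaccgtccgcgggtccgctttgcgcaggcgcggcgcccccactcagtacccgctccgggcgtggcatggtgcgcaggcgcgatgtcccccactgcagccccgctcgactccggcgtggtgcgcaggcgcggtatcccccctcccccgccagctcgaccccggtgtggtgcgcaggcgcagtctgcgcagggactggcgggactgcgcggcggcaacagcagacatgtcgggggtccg
UQCRH: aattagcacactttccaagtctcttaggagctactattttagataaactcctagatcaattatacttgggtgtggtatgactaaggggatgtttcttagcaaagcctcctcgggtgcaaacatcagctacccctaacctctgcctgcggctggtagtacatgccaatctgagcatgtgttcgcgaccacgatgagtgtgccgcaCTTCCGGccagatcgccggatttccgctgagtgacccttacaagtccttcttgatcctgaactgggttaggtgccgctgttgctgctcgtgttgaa
COX6B1: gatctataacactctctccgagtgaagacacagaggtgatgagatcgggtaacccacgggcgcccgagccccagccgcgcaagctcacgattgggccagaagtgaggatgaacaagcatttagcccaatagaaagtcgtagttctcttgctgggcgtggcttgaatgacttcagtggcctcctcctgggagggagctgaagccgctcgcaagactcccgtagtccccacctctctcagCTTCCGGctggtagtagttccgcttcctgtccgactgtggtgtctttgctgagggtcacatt
ATP5ME: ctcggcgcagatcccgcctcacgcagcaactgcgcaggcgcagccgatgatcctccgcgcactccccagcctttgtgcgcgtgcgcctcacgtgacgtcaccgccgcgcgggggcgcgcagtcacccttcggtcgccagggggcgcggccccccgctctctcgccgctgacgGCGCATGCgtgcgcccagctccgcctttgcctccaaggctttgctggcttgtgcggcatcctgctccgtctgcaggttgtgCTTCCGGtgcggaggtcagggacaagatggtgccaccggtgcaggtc
The UQCRH and COX6B1 stretches each hold 1 match to the ETS letters. The ATP5ME stretch holds 1 match to the ETS letters and 1 to the NRF1 letters. Neither the NDUFB1 nor the SDHA stretch holds a match to any of the searched letters, which also included AAGATGGCG (YY1) and GGGCGG (SP1). Only these exact letters were searched, so a site of the same factors spelled otherwise would be missed and left unmarked.

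Of the 90 genes, 70 had an entry in the promoter table. The NRF1 letters were in 18.6% of the 70 stretches, against 4.26% of 15843 promoters of the table, and the ETS letters in 28.6%, against 14.2%. The YY1 letters were in 11.4% of the subunit stretches, against 2.74%, and the SP1 letters in 60.0%, against 58.5%. Matches to different letters can overlap at their ends, and a match is a description of letters, not of binding. Of the 39 genes that fell and had a promoter outside chromosome 8, 8 held the NRF1 letters, 14 the ETS letters, 2 the YY1 letters and 23 the SP1 letters. Of the 26 that did not pass, 4 held the NRF1 letters, 5 the ETS letters, 6 the YY1 letters and 18 the SP1 letters.

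Complex I takes electrons from NADH. Of its 37 nuclear-encoded genes, 19 fell, none rose, and the median log2 change was −1.13. Accessory subunits, which surround the catalytic core, fell in 17 of 30 cases with a median of −1.30. The 7 core subunits, which carry the flavin, the iron-sulfur clusters and part of the quinone site, fell in 2 cases with a median of −0.26.

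NDUFB1, a small accessory subunit of the membrane arm, had 15.5, 18.9 and 23.7 TPM at 60 min, against 133, 99.6 and 260 TPM at 7.5 min. The groups were far apart, and the log2 change was −2.92 (limma, SE 0.68, adjusted p = 0.0071), although with a pseudocount of 0.1 it did not pass. NDUFA1, another single-span accessory subunit, had 6.47, 4.31 and 7.76 TPM at 60 min, against 39.8, 18.03 and 60.4 TPM at 7.5 min. Its log2 change was −2.37 (limma, SE 0.58, adjusted p = 0.0093), and the call was lost without 7.5 min replicate 3 and with a pseudocount of 0.1. NDUFA2, an accessory subunit near the NADH site, had 7.57, 9.99 and 12.8 TPM at 60 min, against 42.1, 43.3 and 45.9 TPM at 7.5 min. The groups did not overlap, but with a log2 change of −2.04 (SE 0.75) it did not pass (limma adjusted p = 0.069), and its 45 min libraries ranged from 0 to 23.8 TPM.

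Several accessory genes had smaller errors. NDUFB2 had 27.4, 21.4 and 42.7 TPM at 60 min, against 96.6, 107 and 156 TPM at 7.5 min, a log2 change of −1.96 (limma, SE 0.28, adjusted p = 1.9e-04). NDUFB11, a subunit of the distal membrane arm, had 20.0, 16.3 and 12.03 TPM at 60 min, against 51.8, 26.3 and 43.1 TPM at 7.5 min. Its log2 change of −1.25 passed (limma, SE 0.35, adjusted p = 0.020), and was lost when any of 4 libraries was left out: 7.5 min replicates 1 and 3 and 60 min replicates 2 and 3.

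The core subunits ran from a fall to values near 0. NDUFS8, which holds iron-sulfur clusters, had 44.3, 37.9 and 43.5 TPM at 60 min, against 117, 85.2 and 115 TPM at 7.5 min, and fell by 1.30 on the log2 scale (limma, SE 0.31, adjusted p = 0.0076). NDUFV2, an iron-sulfur subunit beside the flavin site, fell by 0.63 (limma, SE 0.21, adjusted p = 0.048). The NDUFS8 call held in all 24 alternatives, and the NDUFV2 call did not. NDUFS7, which holds the cluster next to the quinone site, had 18.4, 23.9 and 19.8 TPM at 60 min, against 58.6, 42.2 and 39.9 TPM at 7.5 min. These groups did not overlap, and its log2 change of −1.13 (SE 0.52) did not pass (limma adjusted p = 0.15).

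NDUFS1, the large iron-sulfur subunit that takes electrons from the flavin, had 22.6, 39.1 and 31.9 TPM at 60 min, against 27.1, 28.8 and 30.6 TPM at 7.5 min. The groups overlapped, with a log2 change of 0.08 (SE 0.26). NDUFV1, which binds the flavin and oxidizes NADH, had 54.3, 77.3 and 52.6 TPM at 60 min, against 56.5, 81.7 and 82.4 TPM at 7.5 min, and a log2 change of −0.26 (SE 0.41). Neither NDUFS1 nor NDUFV1 passed in any of the 15 alternative fits.

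Complex II oxidizes succinate. Its genes differed among themselves: SDHA fell, SDHD rose, and the other 2 did not pass. SDHD, a membrane anchor, was the only subunit gene called higher, with 42.5, 34.8 and 41.9 TPM at 60 min, against 18.9, 26.5 and 22.3 TPM at 7.5 min. Every 60 min library was above every 7.5 min library, and the log2 change was 0.80 (limma, SE 0.23, adjusted p = 0.021). That call was lost under all 3 other scalings and without any of 4 libraries, with a log2 change between 0.46 and 0.91 over 15 alternative fits.

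SDHA, the flavoprotein subunit, had 90.8, 95.6 and 105 TPM at 60 min, against 148, 137 and 155 TPM at 7.5 min, a log2 change of −0.59 (limma, SE 0.20, adjusted p = 0.044). The call was lost without any single library of these 6, and SDHA passed in 7 of 15 alternative fits. Pseudogenes named after SDHA summed to a mean of 89.8 TPM at 60 min and 96.4 TPM at 7.5 min, so reads could be split between near-identical copies and the SDHA values are uncertain. For the other 45 subunit genes with such pseudogenes, the pseudogene sum averaged at most 7.12 TPM at 60 min. SDHB, the iron-sulfur subunit, averaged 56.1 ± 8.76 TPM at 60 min and 63.8 ± 8.36 TPM at 7.5 min (n = 3 each, SD), with overlapping groups and a log2 change of −0.19 (SE 0.32). SDHC, the other membrane anchor, averaged 50.3 ± 3.96 TPM at 60 min and 80.2 ± 17.5 TPM at 7.5 min (n = 3 each, SD), and did not pass (log2 change −0.64, SE 0.30, limma adjusted p = 0.15).

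Complex III passes electrons from ubiquinol to cytochrome c. Of its 10 genes 4 fell, all among the 5 small subunits, and neither of the catalytic genes nor either of the core protein genes passed. UQCRH, the hinge protein beside cytochrome c1, had 41.6, 50.7 and 57.2 TPM at 60 min, against 140, 181 and 216 TPM at 7.5 min. It fell by 1.82 on the log2 scale (limma, SE 0.28, adjusted p = 4.0e-04) and was called in all 15 alternative fits. Its paralogue UQCRHL was above 0 in 1 library at 60 min and in 1 at 7.5 min, and reads may be shared between UQCRH and UQCRHL. UQCR10 had 34.3, 32.7 and 38.7 TPM at 60 min, against 80.9, 87.8 and 93.9 TPM at 7.5 min, without overlap. Its log2 change was −1.29 (SE 0.44), and its adjusted p of 0.0498 (limma) was close to the threshold. The call was lost without any of the 6 libraries, and UQCR10 passed in 6 of 15 alternative fits. UQCRQ, another small subunit, had a log2 change of −0.95 (limma, SE 0.29, adjusted p = 0.030). That call was lost without any library of these 6 except 7.5 min replicate 2, and UQCRQ passed in 7 of 15 alternative fits.

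Neither catalytic gene of complex III passed. UQCRFS1, the Rieske iron-sulfur protein, had 166, 112 and 144 TPM at 60 min, against 122, 111 and 126 TPM at 7.5 min, with a log2 change of 0.22 (SE 0.29). CYC1, cytochrome c1, had 55.4, 39.3 and 37.2 TPM at 60 min, against 81.5, 51.9 and 72.2 TPM at 7.5 min, overlapping groups with a log2 change of −0.63 (limma, SE 0.28, adjusted p = 0.13). The core proteins UQCRC1 and UQCRC2, which support the complex on the matrix side, had log2 changes of −0.39 (SE 0.27) and 0.24 (SE 0.27).

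Complex IV, cytochrome c oxidase, had the largest median fall of the 5 complexes, −1.66, and its summed TPM at 60 min was 0.288 of that at 7.5 min. That ratio was 0.448 for complex I, 0.777 for complex II, 0.649 for complex III and 0.481 for complex V. Of the 11 general isoforms, which most tissues use, 10 fell. COX6B1, which joins oxidase monomers on the intermembrane side, had 77.8, 80.4 and 66.9 TPM at 60 min, against 394, 366 and 507 TPM at 7.5 min. The groups were widely apart, with a log2 change of −2.47 (limma, SE 0.23, adjusted p = 8.9e-06).

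COX6C, a small membrane subunit, had 13.1, 17.04 and 25.2 TPM at 60 min, against 86.4, 87.8 and 104 TPM at 7.5 min. COX8A, another small membrane subunit, had 47.5, 39.3 and 41.7 TPM at 60 min, against 220, 180 and 214 TPM at 7.5 min. Both fell, by 2.31 and 2.23 on the log2 scale (SE 0.29 and 0.31), and both were called in all 15 alternative fits.

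COX4I1 and COX5A, subunits that are added early in assembly, also fell. COX4I1 had 102, 87.9 and 101 TPM at 60 min, against 274, 274 and 305 TPM at 7.5 min, a log2 change of −1.55 (limma, SE 0.23, adjusted p = 2.6e-04). COX5A had 102, 72.4 and 109 TPM at 60 min, against 233, 158 and 237 TPM at 7.5 min, a log2 change of −1.14 (limma, SE 0.21, adjusted p = 0.0013). NDUFA4, a later addition to the enzyme, had 5.82, 5.62 and 9.24 TPM at 60 min, against 18.4, 30.9 and 21.9 TPM at 7.5 min, a log2 change of −1.65 (limma, SE 0.30, adjusted p = 0.0013).

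COX7A2 was the general isoform that did not pass: it had 21.4, 37.0 and 64.6 TPM at 60 min, against 79.3, 150 and 188 TPM at 7.5 min. Its log2 change of −1.79 had an SE of 0.91, and it was named after its values were seen. COX7A2L, the paralogue that helps complexes III and IV associate, averaged 20.9 ± 4.31 TPM at 60 min and 32.8 ± 5.26 TPM at 7.5 min (n = 3 each, SD), and had a log2 change of −0.64 (SE 0.49). NDUFA4L2, a paralogue known to respond to hypoxia, was at or below 2.92 TPM in these 6 libraries and did not pass.

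**Figure D2:**
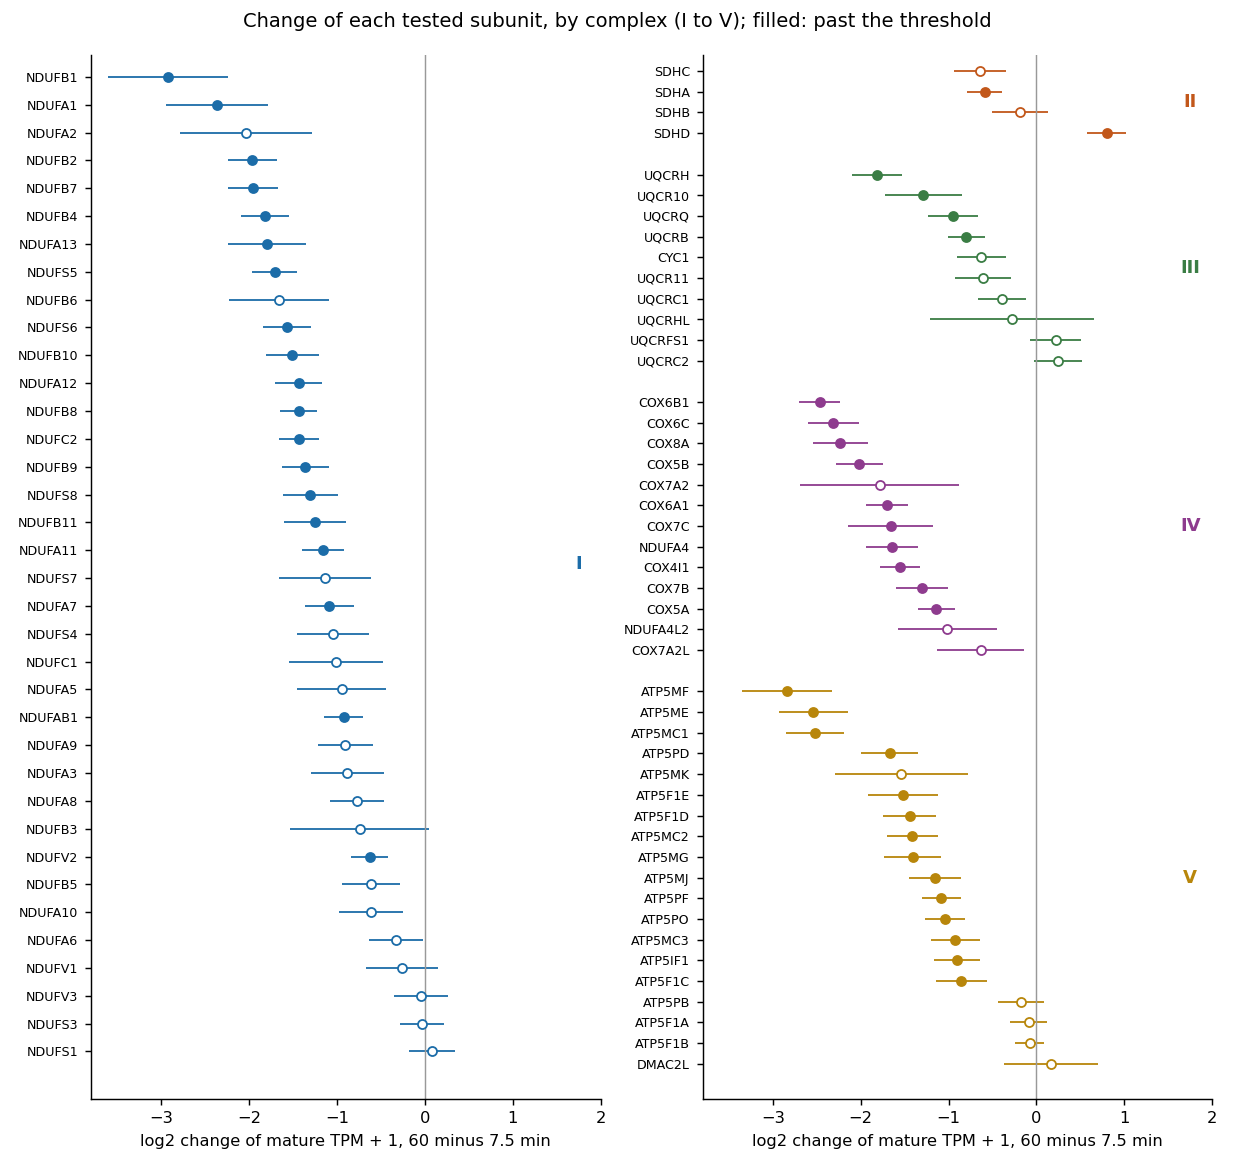
Log2 change of mature TPM + 1 at 60 min minus 7.5 min for 82 of the 83 tested subunit genes (points, with bars of 1 standard error of the limma fit), grouped by complex. Filled points passed the threshold and open points did not; 10 of 13 genes of complex IV are filled, and SDHD in complex II is the only filled point right of 0.

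Complex V, ATP synthase, had 14 of 19 tested genes called lower and none higher, with a median log2 change of −1.15. In the F1 head, the α and β subunits that form the catalytic ring were near their 7.5 min level. ATP5F1A (α) had 167, 207 and 240 TPM at 60 min, against 228, 185 and 237 TPM at 7.5 min, and ATP5F1B (β) had 377, 327 and 351 TPM at 60 min, against 402, 305 and 415 TPM at 7.5 min. Both pairs of groups overlapped, with log2 changes of −0.09 (SE 0.21) and −0.08 (SE 0.16). ATP5F1B had the highest mean TPM of all subunit genes at 15, 30, 45 and 60 min.

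The central stalk genes fell. ATP5F1D (δ) had 32.0, 30.5 and 23.9 TPM at 60 min, against 98.8, 59.9 and 84.6 TPM at 7.5 min, a log2 change of −1.44 (limma, SE 0.30, adjusted p = 0.0032). ATP5F1E (ε) had 18.4, 18.3 and 26.6 TPM at 60 min, against 79.3, 46.6 and 62.1 TPM at 7.5 min, a log2 change of −1.51 (limma, SE 0.40, adjusted p = 0.014). The ATP5F1E call was lost without 7.5 min replicate 1 and without 60 min replicate 1 or 2.

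The c ring, which turns with proton flow, is encoded by 3 genes for the same mature protein, and all 3 fell to different depths. ATP5MC1 had 14.8, 18.03 and 30.5 TPM at 60 min, against 119, 92.2 and 160 TPM at 7.5 min, a log2 change of −2.52 (limma, SE 0.33, adjusted p = 1.1e-04). ATP5MC2 had 125, 113 and 153 TPM at 60 min, against 420, 215 and 460 TPM at 7.5 min, a log2 change of −1.41 (limma, SE 0.29, adjusted p = 0.0033). ATP5MC3 had 54.4, 52.9 and 72.7 TPM at 60 min, against 104, 96.0 and 146 TPM at 7.5 min, a log2 change of −0.92 (limma, SE 0.28, adjusted p = 0.029). In each of the 3 every 60 min library was below every 7.5 min library, and only the ATP5MC3 call was lost under some alternative, in 6 of 15 fits.

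The small membrane subunits held the largest falls of the complex. ATP5MF (subunit f) had 38.4, 64.0 and 89.6 TPM at 60 min, against 412, 459 and 446 TPM at 7.5 min. It had the highest mean of all subunit genes at 7.5 min, and fell by 2.84 on the log2 scale (limma, SE 0.51, adjusted p = 0.0012). ATP5ME (subunit e) had 16.9, 30.2 and 21.7 TPM at 60 min, against 136, 98.6 and 182 TPM at 7.5 min, and fell by 2.54 (limma, SE 0.39, adjusted p = 4.1e-04).

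ATP5IF1, the inhibitor of the enzyme, had 152, 102 and 113 TPM at 60 min, against 239, 171 and 280 TPM at 7.5 min. It fell by 0.90 (limma, SE 0.26, adjusted p = 0.024), and the call was lost without 7.5 min replicate 1 or 3 or 60 min replicate 2 or 3. ATP5PB, the stalk subunit b, had a log2 change of −0.17 (SE 0.26), while the other 3 stalk genes fell by 1.04 to 1.67. DMAC2L, coupling factor B, had 3.86, 13.6 and 6.03 TPM at 60 min, against 8.33, 4.73 and 5.64 TPM at 7.5 min, overlapping groups.

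The change ran with annotated mRNA length. The longest annotated mRNA of each gene was used, which need not be the isoform present in these cells. The longest annotated mRNA of the tested subunit genes had a median of 1263 bases, against 3501 bases over the protein-coding genes, and a median of 314 uridines, against 855. Of the 42 subunit genes with mRNAs up to 1263 bases, 29 fell (median log2 change −1.44), and of the 41 longer ones 19 fell and 1 rose (median −0.90). Spearman's rho between mRNA length and the log2 change was 0.62 across the 83 genes and 0.17 across 12296 protein-coding genes, points that share the same 6 libraries. Among genes with mRNAs of at most 2221 bases, the median log2 change was −1.41 for 61 subunit genes and 0.02 for the 3012 others. For uridine number the same rho was 0.58 among subunit genes. In complex I the longest annotated mRNA had a median of 2064 bases over core genes and 1036 bases over accessory genes. The part of length and uridine number in the result was not tested, also for the difference between these classes.

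**Figure D3:**
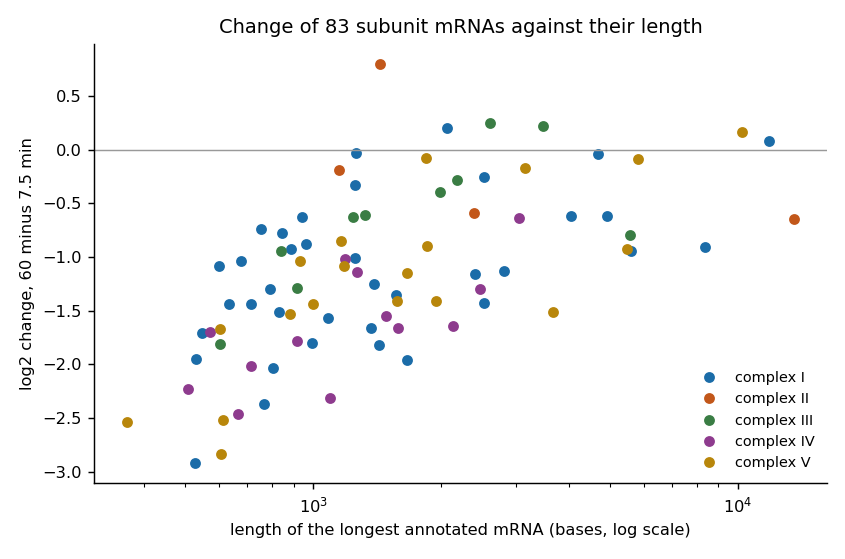
Log2 change of mature TPM + 1 at 60 min minus 7.5 min for 83 subunit genes against the length of the longest annotated mRNA in bases, on a log axis, coloured by complex. The points with the largest falls lie at short lengths, and SDHD, at 0.80, lies highest.

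The unspliced RNA of the subunit genes was tested in the same way. Primary TPM fell in 54 of 80 tested genes from 60 min against 7.5 min and rose in none, with a median log2 change of −1.0. Among all 20010 genes, 59.4% fell and 0.61% rose, with a median of −1.18. The sum of primary TPM over all genes was 71881 to 110292 in 60 min libraries, against 223212 to 237539 in 7.5 min libraries. With median-ratio scaling of primary values the subunit genes gave 4 lower, 33 higher and a median of 0.46. Over all 20010 genes that scaling gave 3167 lower, 2926 higher and a median of 0.07. The primary direction of the subunit genes thus rests on the scaling. The largest falls were in NDUFS4, by 2.63 on the log2 scale, and NDUFA9, by 2.20. ATP5MF had the highest log2 change, 1.25 (SE 0.58), which did not pass (limma adjusted p = 0.081).

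The ratio of primary to mature TPM within a gene does not depend on such scaling beyond its pseudocount. It fell in 14 of 79 tested subunit genes and rose in 16, against 62.8% lower and 1.09% higher among all 13879 genes tested. The median log2 change of the ratio was 0.32 for subunit genes and −1.81 for all genes. The subunit median was 0.07 without 60 min replicate 3, 0.10 without 7.5 min replicate 3 and 0.19 without 7.5 min replicate 1, and the all-gene median was −1.93 to −1.61 with single libraries left out. In complex IV 6 of 13 rose and none fell, in complex II 3 of 4 fell, and in complex I 5 of 36 rose and 7 fell.

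The 16 genes with a rising ratio were 5 of complex I (NDUFB2, NDUFB4, NDUFB7, NDUFB10 and NDUFS8), 6 of complex IV and 5 of complex V. Of them 15 had fallen in mature TPM. The ratio holds the same mature values, so a fall in mature TPM by itself raises it, and the calls are not independent. For ATP5MF the primary TPM were 6.67, 6.32 and 10.8 at 60 min, against 1.85, 5.85 and 2.97 at 7.5 min, and the ratio rose by 4.10 on the log2 scale (limma, SE 0.40, adjusted p = 0.000009). For COX6B1 the unspliced share was 10.4, 13.9 and 17.2% at 60 min, against 6.58, 5.02 and 4.92% at 7.5 min, and the ratio rose by 1.45 (limma, SE 0.35, adjusted p = 0.0026). For COX4I1 that share was 19.3, 21.8 and 20.3% at 60 min, against 12.3, 8.50 and 8.49% at 7.5 min.

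The 14 genes with a falling ratio included the core subunits NDUFS1 and NDUFV2, the Rieske protein UQCRFS1, UQCRC2, ATP5F1A and all genes of complex II but SDHA. For NDUFS1 the unspliced share was 10.1, 10.6 and 16.8% at 60 min, against 32.3, 35.1 and 35.4% at 7.5 min, and the log2 ratio fell by 1.88 (limma, SE 0.31, adjusted p = 2.1e-04). SDHD had the largest fall of the ratio, by 2.57 (SE 0.33), and ATP5F1A fell by 1.18 (SE 0.21). NDUFB1 had a nearly level primary TPM, 25.4 ± 2.57 at 60 min and 24.0 ± 3.14 at 7.5 min (n = 3 each, SD). Its unspliced share was 59.2, 59.1 and 52.7% at 60 min, against 17.1, 18.7 and 7.68% at 7.5 min, though its ratio did not pass (limma adjusted p = 0.055).

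Across the 79 genes, the median unspliced share averaged 16.9 ± 2.48, 24.2 ± 2.60, 26.5 ± 2.51, 21.0 ± 2.70 and 15.9 ± 1.39% from 7.5 to 60 min (SD, n = 3 libraries each). Over all 13878 genes it was 38.9 ± 0.47, 37.1 ± 3.42, 28.6 ± 2.44, 18.3 ± 3.68 and 14.8 ± 3.07%. The subunit genes were lowest at the first and last times and highest at 30 min, while the mean over all genes was lower at each later time. In total RNA the subunit median was 0.470% in the poly(A), 0.883% in the RNase H and 0.580% in the Ribo-Zero library.

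The authors' table of introns, built from junction reads and averaged over replicates, held 176 introns of 51 subunit genes among 21782. The excised share of an intron is the authors' measure of how complete its splicing is, and no replicate values were given for it. For subunit introns its median at 7.5, 15, 30, 45 and 60 min was 66.5, 59.0, 58.1, 68.0 and 75.8%. Over all introns it was 54.2, 57.9, 69.6, 80.6 and 84.4%. Of the subunit introns 67.6% had a lower share at 30 min than at 7.5 min, against 18.6% of all introns, and 31.8% were still lower at 60 min than at 7.5 min, against 5.44%. In complex IV all 19 introns were lower at 30 min than at 7.5 min, and in complex II 4 of 18 were.

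**Figure D4:**
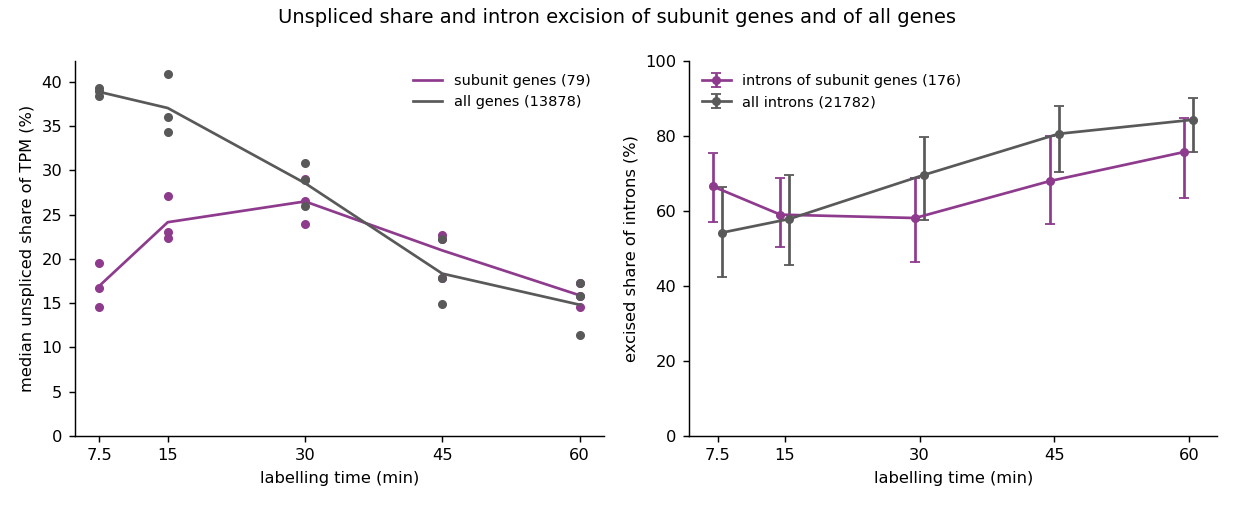
Left, median unspliced share of TPM (%) against labelling time in min for 79 subunit genes and all 13878 genes (points, libraries; lines, means of 3). Right, excised share of introns (%) for 176 introns of subunit genes and all 21782 introns (points, medians; bars, quartiles). Subunit genes start at 16.9% unspliced and all genes at 38.9%, and the excised share of subunit introns dips to 58.1% at 30 min.

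Single introns ran from low to nearly complete excision. The lowest share at 60 min was that of the ATP5MF intron chr7:99056887-99057708 (hg19, minus strand, 822 bases), 25.7% at 60 min, against 75.2% at 7.5 min. The single listed NDUFA11 intron, chr19:5894866-5896463 (hg19, minus strand), was excised to 27.2% at 60 min, against 72.5% at 7.5 min, in a gene for a membrane-arm accessory subunit. In COX4I1 the intron chr16:85838711-85839338 (hg19, plus strand, 628 bases) had a 5′ splice site score of 0.29, against a median of 8.76 over all introns. It was excised to 33.4% at 60 min, against 78.1% at 7.5 min. An SDHB intron with a lower 5′ score, −0.24, chr1:17350570-17354243 (hg19, minus strand), was excised to 57.6% at 60 min, against 57.9% at 7.5 min. Another SDHB intron, chr1:17354361-17355094, had the largest gain, 91.0% at 60 min, against 49.4% at 7.5 min. The highest share at 60 min was 99.4%, in ATP5PB, against 75.4% at 7.5 min.

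Genes with several listed introns also differed. The 11 listed introns of UQCRC2 had a median of 83.3% at 60 min, against 53.2% at 7.5 min, and the 11 of ATP5F1A one of 88.4%, against 71.1%. The core subunit gene NDUFS8 had a median of 50.1% over 2 introns at 60 min, against 75.9% at 7.5 min, and NDUFV1 one of 62.0% over 3 introns, against 59.7%. In the authors' own classes, 36.9% of subunit introns were fast, 30.7% medium and 32.4% slow, against 39.4, 43.0 and 17.7% of all introns. The subunit introns had a median length of 1598 bases, against 1424, and median splice site scores of 8.86 (5′) and 9.14 (3′), against 8.76 and 8.72.

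Labelled RNA after 60 min was also set against total RNA. Of 82 tested subunit genes 53 were lower in labelled RNA and 1 was higher, against 5.24% lower and 40.1% higher among 16580 genes. The median log2 change was −1.34, against 0.84 for all genes. Under median-ratio scaling the median of all genes was 0.06, their calls were 2857 lower and 2516 higher, against 869 and 6653 without it, and the subunit genes gave 73 lower and 0 higher with a median of −2.33. In 59 of the 82 every labelled 60 min library lay below every total library, against 7.23% of all genes.

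By complex, 23 of 37 genes of complex I, 1 of 4 of complex II, 4 of 10 of complex III, 11 of 12 of complex IV and 14 of 19 of complex V were lower. ATP5MF had 38.4, 64.0 and 89.6 TPM in labelled 60 min RNA, against 844 TPM in the poly(A), 505 in the RNase H and 486 in the Ribo-Zero library, a log2 change of −3.27 (limma, SE 0.50, adjusted p = 4.6e-05). NDUFB1 was lower by a log2 change of −3.25 (SE 0.64) and COX6C by −2.46 (SE 0.31). The number called higher was 0 without 60 min replicate 2 or 3 or the RNase H or Ribo-Zero library, and 3 without the poly(A) library. Of the 82 subunit genes tested in both comparisons, 41 were lower at 60 min against both 7.5 min and total RNA. The comparisons share the 60 min libraries, so their calls are not independent, and the same overlap was not counted over all genes.

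The total libraries differed among themselves. In 81 of 82 subunit genes at 5 TPM or above the poly(A) value was the highest of the 3, against 9796 of 11078 genes in all, with a median log2 ratio of 0.90 to the RNase H and 0.74 to the Ribo-Zero library. Without the poly(A) library 40 subunit genes were lower at 60 min than in total RNA, against 560 lower of all 16620 genes tested. With that library the counts were 53 and 869. Subunits encoded in mitochondrial DNA summed to 135040 TPM with poly(A) selection, 115492 after RNase H and 2302 after Ribo-Zero.

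In copies per cell as the authors estimated them, the median over the 90 genes was 11.3 in the poly(A), 23.9 in the RNase H and 18.4 in the Ribo-Zero library. For protein-coding genes above 0 it was 1.12, 3.19 and 1.13. ATP5MF had the most copies of the subunit genes in the poly(A) and RNase H libraries, 63.8 and 193, and ATP5F1B in the Ribo-Zero library, 153.

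The authors' table of RNA metabolism scores held 76 of the subunit genes. Degradation, estimated by the authors from the same labelled libraries and so not independent of the levels above, had a median score of −0.72, at percentile 3.24 of 12631 protein-coding genes, and 74 of the 76 lay below the protein-coding median. ATP5MF had the lowest value, −1.15, at percentile 0.0475. The exceptions were ATP5F1E at percentile 55.7 and DMAC2L at percentile 79.1. Complex IV had the lowest median degradation score, −0.81, and complex II the highest, −0.48. Synthesis scores were at percentile 80.7 by their median, and processing scores at 58.9, a spread from low to high.

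Scores from other libraries of the authors lay high. The median cytoplasmic to nuclear score was at percentile 91.1, the polysomal to cytosolic score at 96.6 and the translation score at 95.7, and all 76 genes had a translation score above the protein-coding median. On the polysomal score 7 genes lay below that median, with NDUFS1 lowest at percentile 15.8, then ATP5F1A at 19.6 and SDHA at 26.7. The other 4 were UQCRC2, ATP5F1B, NDUFA10 and NDUFA5. Of these 7, SDHA was the only gene called lower at 60 min against 7.5 min. In the authors' 7 clusters, 69 genes were in the first, which held 16.3% of protein-coding genes, and 7 in the second.

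**Figure D5:**
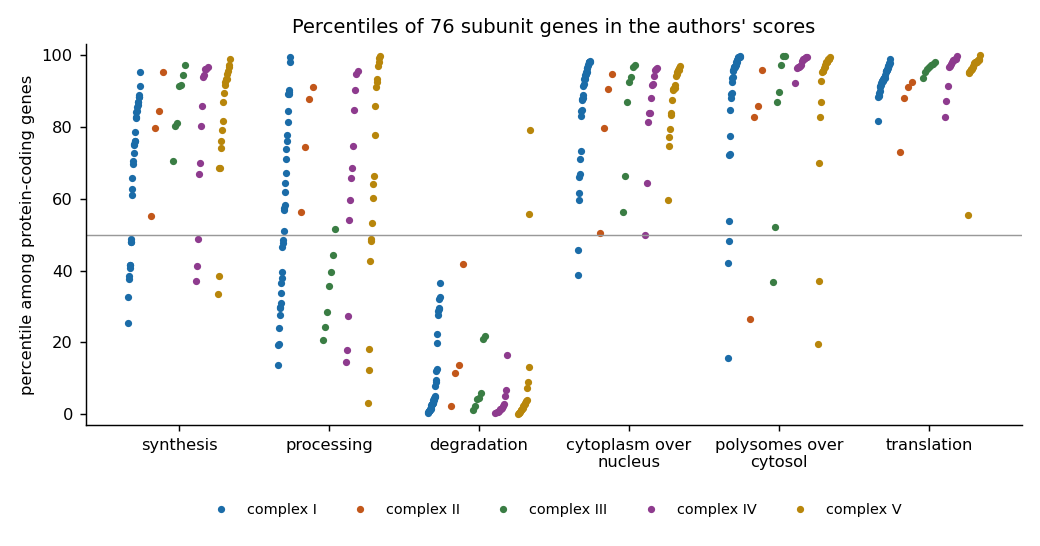
Percentile of each of 76 subunit genes among 12631 protein-coding genes on 6 of the authors' scores (points, genes, coloured by complex; grey line, the median). Degradation percentiles crowd near the bottom, with 74 of 76 genes below the line, and all 76 translation percentiles lie above it.

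Among genes with degradation scores up to −0.32, the median log2 change at 60 min against 7.5 min was −1.30 for 66 subunit genes and 0.02 for the 2745 others. Among genes with a mean log2(TPM + 1) in total RNA above 4.88, it was −1.14 for 74 subunit genes and 0.22 for the 3015 others. These are descriptions within ranges of 1 measure at a time.

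Other genes of the pathway are read against the same shares of all genes, 4.21% lower and 15.8% higher. Of 13 subunits encoded in mitochondrial DNA, 6 rose at 60 min against 7.5 min and none fell, with a median log2 change of 0.69. MT-ND4, a membrane subunit of complex I, averaged 16190 ± 1851 TPM at 60 min and 8215 ± 1905 TPM at 7.5 min (n = 3 each, SD), a log2 change of 1.00 (limma, SE 0.21, adjusted p = 0.0038). MT-CYB, cytochrome b of complex III, rose by 0.93 (limma, SE 0.23, adjusted p = 0.0099), and MT-ATP8, of complex V, had a log2 change of −0.06 (SE 0.36).

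Of 54 assembly factors, 7 fell (13.0%) and 3 rose, against 4.21% and 15.8% of all genes, with a median log2 change of 0.08. A larger share of them fell and a smaller share rose than of all genes. PET100, a small factor for complex IV, averaged 2.44 ± 1.83 TPM at 60 min and 34.4 ± 10.3 TPM at 7.5 min (n = 3 each, SD), a log2 change of −3.47 (limma, SE 0.63, adjusted p = 0.0014). COX17, the copper chaperone of complex IV, had a log2 change of −1.98 (limma, SE 0.40, adjusted p = 0.0026). COX18, an insertase for a mitochondrially made subunit, averaged 8.33 ± 1.03 TPM at 60 min and 1.90 ± 0.71 TPM at 7.5 min (n = 3 each, SD) and rose by 1.71 (limma, SE 0.34, adjusted p = 0.0024), and NDUFAF4, a complex I factor, rose by 1.13 (limma, SE 0.29, adjusted p = 0.013).

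Of 18 genes of the citrate cycle, pyruvate dehydrogenase and cytochrome c, 1 rose and none fell, a count near or below the shares of all genes, with a median log2 change of −0.07. The gene that rose was DLAT, the acetyltransferase of pyruvate dehydrogenase, by 0.75 (limma, SE 0.25, adjusted p = 0.042). Of 13 regulators of mitochondrial gene expression, 8 rose and none fell, with a median of 0.84. GABPA, the ETS factor whose letters were searched above, averaged 51.9 ± 11.9 TPM at 60 min and 14.6 ± 3.43 TPM at 7.5 min (n = 3 each, SD), a log2 change of 1.76 (limma, SE 0.40, adjusted p = 0.0059). TFAM, which packages mitochondrial DNA, rose by 1.23 (limma, SE 0.18, adjusted p = 2.3e-04), and NRF1 had a log2 change of 0.26 (SE 0.21).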

How the data were processed

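Labelled RNA of 5 labelling times with 3 libraries each and 3 total RNA libraries were used, grouped by the labels. Per the submitters' processing notes and the file headers, the authors aligned reads with Bowtie 1.0.1 to hg19 and estimated TPM with RSEM 1.2.11 on GENCODE 19 annotation with 1 added locus-spanning isoform per gene, the primary transcript. Mature TPM sum the other isoforms. TPM keep no depth, so no counting intervals are given. The excised share of an intron is a fraction that the authors took from junctions with over 5 reads in each of 3 replicates and then averaged, per the file headers, and the intron's GC share is a fraction too. Intron lengths were deposited on a log10 scale. The splice site scores and the gene scores (synthesis, processing, degradation, localization, translation) are the authors' scores, deposited centred on log scales, and copies per cell are the authors' estimates. No unit is given for the deposited rates in the intron table, and 11 columns of per-sample values were not used.

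Mature values were tested with limma 3.58.1 in R 4.3.3 as log2(TPM + 1) over the 15 labelled libraries, with an intensity trend, for genes with a mean of 1 TPM or more. Primary values and ratios used a pseudocount of 0.1 and, for primary values, a mean of at least 0.1 TPM. Labelled 60 min and total RNA were compared over all 18 libraries. Benjamini-Hochberg adjustment ran over all genes tested, with a threshold of 0.05, and fold changes on this scale understate those of low genes. The code was tested on simulated data. Gene symbols and mRNA lengths came from GENCODE 29, which matched 82.6% of the identifiers, and promoters from RefSeq (GRCh38.p14).

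Genes were named by a rule: in each complex the 3 largest falls and the 2 largest rises or smallest falls, each gene called higher, and a list of catalytic, assembly and isoform genes. Others named were chosen after their values were seen. The members, lists and tests were chosen with earlier results of these data known. Alternatives were other pseudocounts, filters and scalings, a fit without trend, a fit on the compared libraries, the title letter as a block and leaving out each library. A few genes of the lists are not reported here by name.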

Additional observations from a re-analysis of the deposited data

How the results depend on the processing

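The number of subunit genes called lower at 60 min against 7.5 min was 41 to 55 over 9 other settings and 36 to 56 when single libraries were left out, 36 without 7.5 min replicate 3. Of the 49 genes called, 32 kept their call in all 24 alternatives. The number called higher was 0 under median-ratio scaling, quantile normalization and TPM rescaled over mature transcripts, and 0 to 1 with single libraries left out. The median log2 change under those 3 scalings was −1.47, −1.33 and −1.37. Median-ratio scaling gave medians of −1.47 for complex I, −0.73 for complex II and −0.96 for complex III. At 15 min leaving out single libraries gave 0 to 1 lower. At 45 min, 29 were lower with only the 6 compared libraries, and calls over all genes also went down, from 798 to 316 lower. The cause was not tested. Against total RNA the number higher was 0 under median-ratio scaling, 3 under rescaled TPM and 0 to 3 with libraries left out, and the median was −2.33 under median-ratio scaling. Primary TPM reversed under median-ratio scaling, with 4 lower and 33 higher, against 3167 lower and 2926 higher of all 20010 genes. With that scaling the subunit median was 0.46. With libraries left out, 0 to 1 were higher and the median was −1.14 to −0.80. The ratio of primary to mature fell in 9 to 15 genes with single libraries left out, 9 without 60 min replicate 1. The median of that ratio was 0.07 to 0.37 with single libraries left out.

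Between 60 and 7.5 min, libraries of the same title letter correlated weakly in their deviations (r = 0.273, 0.0835 and 0.0893). Replicates 1 and 2 of 60 min correlated best with their own letter and replicate 3 with 7.5 min replicate 2 (0.128), and the other times were not checked. The labels do not say what the letters share, and these values do not settle whether they pair the libraries. With the letter as a replicate block, 54 genes were lower and 1 higher at 60 min, 10 lower at 15 min, 53 at 30 min and 61 at 45 min. Over all 16739 genes the block gave 1090 lower and 3669 higher at 60 min. It gave 123 lower at 15 min, 742 at 30 min and 1185 at 45 min over all genes. For primary TPM the block gave 56 subunit genes lower and 1 higher, against 12770 lower and 190 higher of all 20010. For the ratio it gave 18 subunit genes lower and 17 higher, against 9038 lower and 176 higher of all 13879. TPM carry no depth, so the limit set by depth is unknown.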
